A study of Mus musculus with 4 samples.

Results

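The genes described here are 10 genes of the hypoxia response and of glycolysis, namely *Hif1a*, *Vegfa*, *Slc2a1*, *Pgk1*, *Ldha*, *Aldoa*, *Eno1*, *Pdk1*, *Bnip3* and *Ankrd37*. They were looked up by symbol among the 23284 gene symbols of the RNA-Seq count data, and all 10 were present and passed the filter on low counts that left 15645 genes for testing. The cells were live, GFP-expressing Osr1+ cells sorted by FACS from the limbs of C57BL/6J mouse embryos at E13.5. Samples from 2 *Osr1* GCE/+ embryos were compared with samples from 2 *Osr1* GCE/GCE embryos. GCE is a knock-in of eGFP and the tamoxifen-inducible CreERt2 recombinase at the *Osr1* locus. GCE/+ cells therefore carried 1 GCE allele and were not wild-type, GCE/GCE cells carried 2, and the GFP used for the sort was driven by the disrupted gene itself. No tamoxifen treatment is given in the labels. *Osr1*, the targeted gene, had 81.9 and 79.1 CPM (counts scaled to a fixed library size) in GCE/+ replicates 1 and 2, and 11.9 and 13.9 CPM in GCE/GCE replicates 1 and 2.

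Cells sense oxygen through HIF1α, the product of *Hif1a*, which is hydroxylated and degraded when oxygen is plentiful and which pairs with ARNT to activate its targets when oxygen is scarce. These targets include the glucose transporter and most enzymes that turn glucose into lactate, the angiogenic factor VEGF-A, and regulators of mitochondria. Because HIF1α is controlled mainly at the level of protein stability, its mRNA level is not a measure of its activity. In the limb bud, connective tissue fibroblasts lie beside cartilage condensations, which are avascular and depend on HIF1α.

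The HIF dimer recognises a short core sequence, which was looked for in the promoters of the 10 genes because HIF acts on its targets through it. Promoters were 300-base RefSeq windows of GRCm38.p6, from 250 bases before to 50 bases after an annotated start, with 17 windows for the 10 genes. The letters ACGTG or GCGTG, read on either strand, were present in 14 of the 17 windows, against 43.8% of 32851 windows genome-wide. Counted by gene, all 10 genes had either motif in at least 1 window, against 46.7% of 27025 genes. ACGTG itself was present in 9 windows and in 8 of the 10 genes, against 19.6% of windows and 21.8% of genes, and *Eno1* and *Pdk1* held GCGTG only. Windows of a gene are not independent: windows 2 and 3 of *Aldoa*, and windows 2 and 3 of *Eno1*, overlap and hold the same matches. The list holds genes known as HIF targets, so a share above the genome-wide one is partly built in. The palindrome CACGTG holds ACGTG on both strands and counts as 2 overlapping matches. The windows of *Bnip3* and *Pdk1* are shown because these were the genes that passed the test between genotypes, and that of *Ldha* because it held the most matches, 7. *Bnip3* held 5 matches, at positions -117, -108, -107, -99 and -35 from the start, and the *Pdk1* window shown held 2, at -78 and -2, counted to the first base of the match. The other window of *Pdk1*, not shown, held 0 matches, and the other window of *Ldha* held 2. Capitals mark the matches, the sequences run 5′ to 3′ on the gene's strand, and a match describes letters and not a bound site.
Bnip3 (chr7:138909457-138909756, minus strand): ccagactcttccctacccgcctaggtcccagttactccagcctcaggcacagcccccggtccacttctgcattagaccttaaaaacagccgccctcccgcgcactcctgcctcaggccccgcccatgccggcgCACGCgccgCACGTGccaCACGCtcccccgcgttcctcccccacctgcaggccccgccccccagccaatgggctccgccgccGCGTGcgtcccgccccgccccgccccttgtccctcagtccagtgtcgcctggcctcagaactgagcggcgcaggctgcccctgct
Pdk1 (chr2:71872974-71873273, plus strand): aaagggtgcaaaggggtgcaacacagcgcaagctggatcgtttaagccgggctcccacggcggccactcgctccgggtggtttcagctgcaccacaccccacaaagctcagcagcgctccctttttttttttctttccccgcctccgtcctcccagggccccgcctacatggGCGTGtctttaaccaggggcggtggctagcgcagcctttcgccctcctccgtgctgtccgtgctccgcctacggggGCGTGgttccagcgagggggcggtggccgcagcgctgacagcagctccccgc
Ldha (chr7:46845554-46845853, plus strand): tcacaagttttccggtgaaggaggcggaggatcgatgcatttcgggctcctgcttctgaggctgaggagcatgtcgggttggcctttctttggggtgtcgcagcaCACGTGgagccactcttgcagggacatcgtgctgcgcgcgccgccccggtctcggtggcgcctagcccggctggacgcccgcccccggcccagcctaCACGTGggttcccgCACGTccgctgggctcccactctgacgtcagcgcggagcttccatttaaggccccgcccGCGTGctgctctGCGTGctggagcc

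Levels are given as CPM scaled by TMM (trimmed mean of M-values) factors, and the difference between genotypes as the log2 fold change of GCE/GCE over GCE/+ with its standard error (SE). The 10 genes together took 0.192% and 0.180% of all counts in GCE/+ replicates 1 and 2, and 0.214% and 0.208% in GCE/GCE replicates 1 and 2. Library totals lay between 52121596 and 61402140 counts, and the lowest count of any of the 10 genes in any library was 186, for *Ankrd37*. Levels of the 10 genes were compared with each other only per kb of the longest transcript. Genes of other lists that are named below for the highest mean CPM were picked on CPM not scaled for length, which does not rank their levels. On this scale *Ldha* led with a mean of 328.5 CPM per kb, followed by *Aldoa* with 219.6 and *Pgk1* with 197.3, the 3 abundant glycolytic enzymes. *Aldoa* exceeded *Pgk1* in each of the 4 samples, but their ranges over the samples overlapped, from 189.7 to 245.4 and from 174.4 to 218.4 CPM per kb. *Vegfa* (58.3), *Hif1a* (49.6) and *Slc2a1* (36.0 CPM per kb) formed the middle of the order. *Vegfa* exceeded *Hif1a* in each sample and their ranges did not overlap, with 55.7 as the lowest *Vegfa* value and 54.0 as the highest *Hif1a* value, but with the median transcript length in place of the longest the *Vegfa* level became 176.1 CPM per kb. *Bnip3* (21.5), *Pdk1* (14.5), *Eno1* (8.94) and *Ankrd37* (5.08 CPM per kb) were the lowest. The place of *Eno1* is uncertain, because it held at most 10.67% of the counts that it shared with its near-identical copy *Gm5506*.

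**Figure D1:**
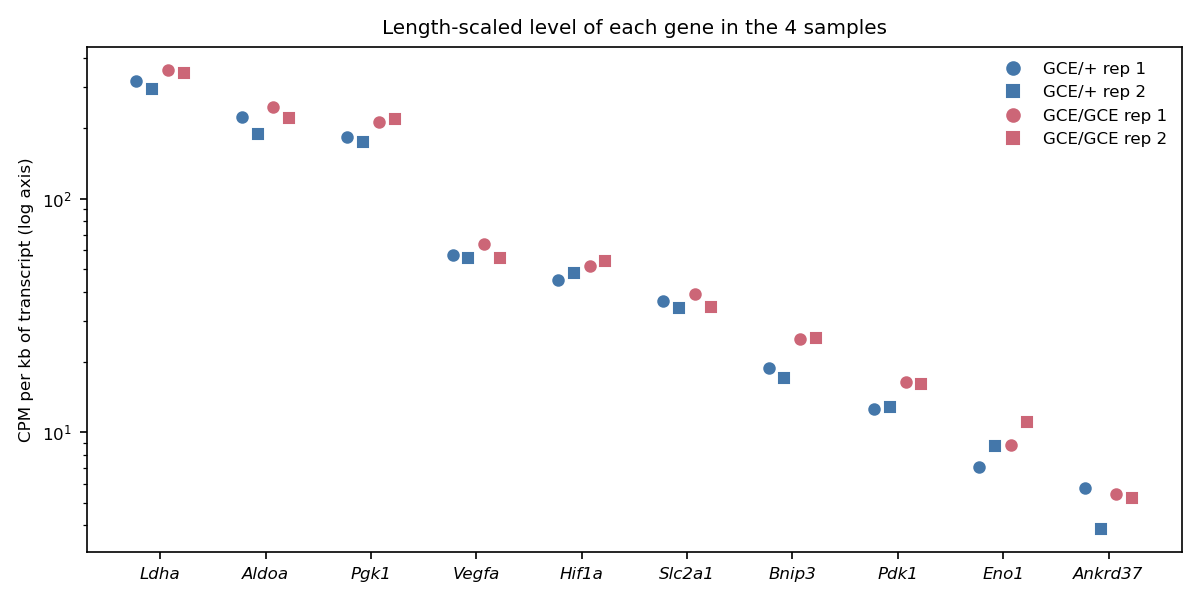
Length-scaled level of the 10 genes in each of the 4 samples, in CPM per kb of the longest transcript on a log axis, with circles for replicate 1 and squares for replicate 2 of each genotype. From *Ldha* (mean 328.5) to *Ankrd37* (mean 5.08) the order of genes was the same in all 4 samples, with the place of *Eno1* uncertain because of its copy *Gm5506*, and the genotypes lay close together within each gene.

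Across the 10 genes, *Bnip3* and *Pdk1* rose in GCE/GCE cells, none fell, and the other 8 did not pass the test. DESeq2 called the same 2 genes, and 3 of the 10 genes had an unadjusted p under 0.05, as did 10.5% of all genes, with *Pgk1* as the third. The quasi-likelihood test of edgeR was run over all 15645 genes with a Benjamini-Hochberg adjusted p under 0.1 as threshold and called 0.895% of genes higher and 0.927% lower in GCE/GCE cells. All 10 log2 fold changes were above 0, as were 50.9% of those of all genes, and they ran from 0.05 for *Slc2a1* to 0.49 for *Bnip3*. Their median was 0.19, against 0.00 over all genes tested. In 6 of the 10 genes both GCE/GCE samples lay above both GCE/+ samples, which held for 19.2% of all genes, and in none did they lie below, which held for 19.1%. All 10 log2 fold changes also stayed above 0 when the counts were scaled by RLE or upper quartile factors or by library totals alone. An exact permutation test of 2 samples against 2 can give no p below 0.333, and the fitted p-values borrow their spread from all genes and measure only the spread between these samples. In bulk RNA from sorted cells, a change in the number of expressing cells and a change in RNA per cell cannot be told apart.

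**Figure D2:**
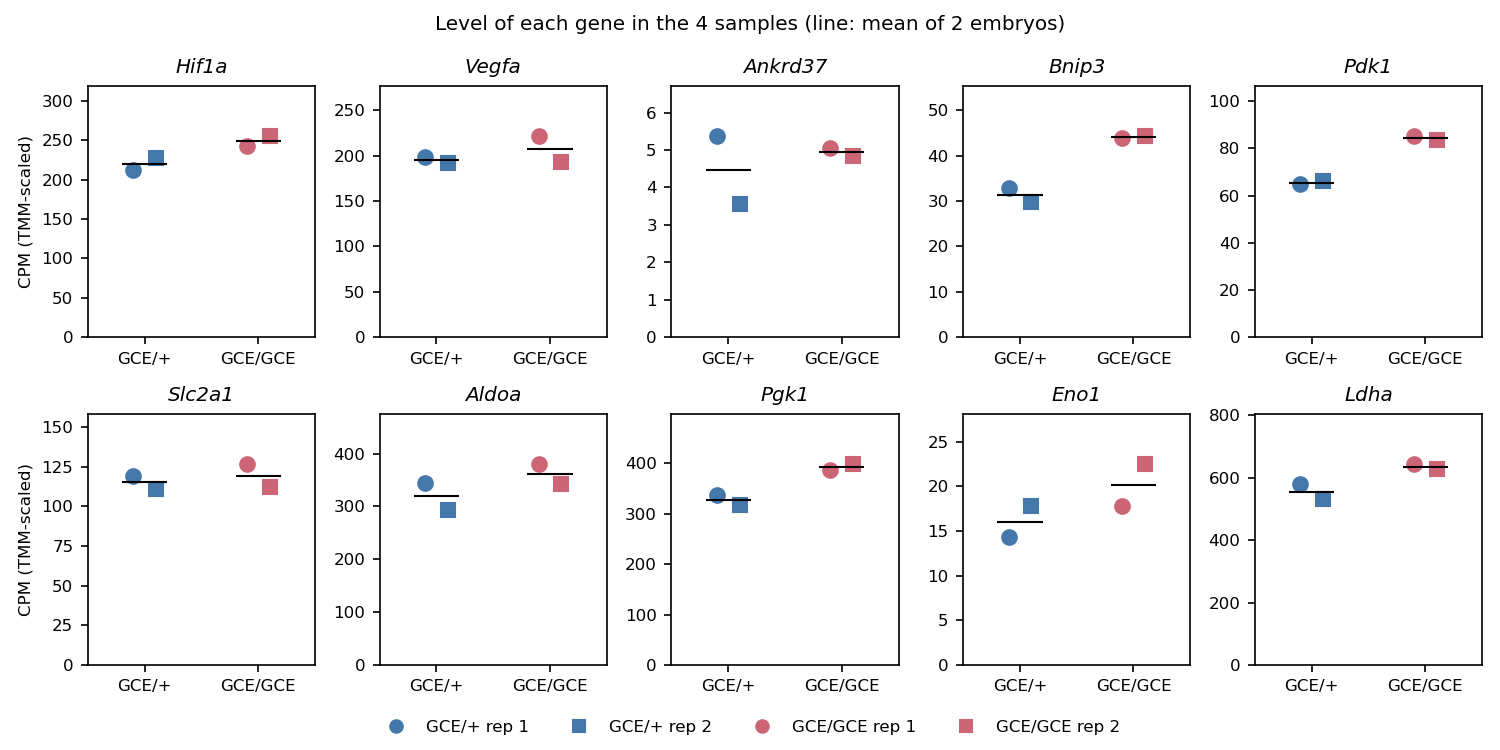
CPM of each of the 10 genes in the 4 samples, each panel on its own linear axis from 0, with lines at the mean of the 2 embryos of a genotype. *Bnip3* and *Pdk1* show the widest gaps between genotypes relative to the gap between embryos of 1 genotype, whereas *Vegfa*, *Slc2a1*, *Aldoa* and *Ankrd37* overlap.

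*Hif1a* encodes the oxygen-regulated subunit of HIF1. It had 211.9 and 227.5 CPM in GCE/+ replicates 1 and 2 and 242.5 and 255.2 CPM in GCE/GCE replicates 1 and 2. The GCE/GCE samples were both higher, but the difference was small, with a log2 fold change of 0.18 (SE 0.08, 95% interval -0.01 to 0.37), and did not pass the test (Benjamini-Hochberg adjusted p = 0.527, edgeR quasi-likelihood fit). The other genes that set HIF activity showed no call in either direction among 10 tested, and by DESeq2 also none. None had an unadjusted p under 0.05, and the log2 fold changes ran from -0.17 to 0.06 around a median of -0.02. They included the partner subunit *Arnt*, with the highest mean CPM of them, at 131.6, 140.6, 137.4 and 135.0 CPM in the same order of samples (log2 fold change 0.00, SE 0.08). The pair with the lowest p were the prolyl hydroxylase *Egln3*, whose product marks HIF for degradation and is itself a HIF target (-0.17, SE 0.16), and *Epas1*, which encodes HIF2α (-0.12, SE 0.15), and in both the samples of the genotypes overlapped.

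*Bnip3* encodes a protein of the mitochondrial outer membrane that promotes the removal of mitochondria, and it lies on chromosome 7 of GRCm38 from 138890836 to 138909519. It had 32.9 and 29.9 CPM in GCE/+ replicates 1 and 2 and 43.8 and 44.3 CPM in GCE/GCE replicates 1 and 2. Both GCE/GCE samples exceeded both GCE/+ samples, by 40.3% on average. The log2 fold change was 0.49 (SE 0.09, 95% interval 0.27 to 0.70, Benjamini-Hochberg adjusted p = 0.0649, edgeR quasi-likelihood fit), and it was also called when any 1 of the 4 samples was left out. Such a fit compares 2 embryos with 1 and takes its spread from the other genotype alone, and without a GCE/GCE sample the SE of *Bnip3* was 0.16. It was not called at an adjusted p under 0.05 or without the filter on low counts (adjusted p = 0.136, the same edgeR test), and over all alternatives its adjusted p ran from 0.00397 in DESeq2 to 0.136. Of the 50-base stretches of its longest transcript, 62.4% also occurred in transcripts of other annotated genes, 44.9% in the single annotated locus AC160336.1. Reads from such stretches may have been left uncounted or assigned to a copy.

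*Pdk1* encodes a kinase that inhibits pyruvate dehydrogenase and so keeps pyruvate out of the citric acid cycle. It lies on chromosome 2 of GRCm38 from 71873224 to 71903858, and none of its 50-base stretches (0.0%) occurred in another gene. It had 64.9 and 66.2 CPM in GCE/+ replicates 1 and 2 and 85.2 and 83.4 CPM in GCE/GCE replicates 1 and 2. The genotypes were separated by 28.6% while embryos of 1 genotype differed by 0.03 on the log2 scale in either genotype. The log2 fold change was 0.36 (SE 0.08, 95% interval 0.18 to 0.54, Benjamini-Hochberg adjusted p = 0.0931, edgeR quasi-likelihood fit). The call was close to the threshold: it was lost without GCE/+ replicate 1 (adjusted p = 0.165), without GCE/GCE replicate 1 (0.257) and without GCE/GCE replicate 2 (0.226), and kept without GCE/+ replicate 2 (0.0603, all by the same edgeR test and adjustment). The log2 fold change stayed between 0.32 and 0.38 under all 17 alternatives. Blocking on replicate number gave *Pdk1* an adjusted p of 0.146 in the same edgeR test, and DESeq2 gave 0.0268. The 3 related kinases were not called, with log2 fold changes of -0.18 for *Pdk2*, 0.12 for *Pdk3* and 0.12 for *Pdk4*.

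*Ankrd37*, a HIF target that encodes an ankyrin repeat protein, was the lowest of the 10 genes, with 5.37 and 3.56 CPM in GCE/+ replicates 1 and 2 and 5.06 and 4.84 CPM in GCE/GCE replicates 1 and 2. Both GCE/GCE values fell between those of the GCE/+ embryos, which differed by 0.59 on the log2 scale. Its log2 fold change of 0.14 (SE 0.21, 95% interval -0.34 to 0.63) became -0.12 without GCE/+ replicate 2. Its exons overlap those of *Lrp2bp* and *Ufsp2* on the opposite strand, and the library kit does not mark strand.

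*Vegfa* encodes the main angiogenic factor induced by HIF. It had 198.8 and 192.2 CPM in GCE/+ replicates 1 and 2 and 221.5 and 192.7 CPM in GCE/GCE replicates 1 and 2. GCE/GCE replicate 1 stood above the other samples, and without it the log2 fold change of 0.08 (SE 0.09, 95% interval -0.13 to 0.30) became -0.03. Among 9 other ligands and receptors of the VEGF family none was called by edgeR or DESeq2. In the edgeR test 3 had an unadjusted p under 0.05, as did 10.5% of all genes. The median log2 fold change was -0.22, and 8 of the 9 values were below 0, as were 7676 of the 15645 genes tested. *Vegfc*, a lymphangiogenic ligand, had 23.9, 21.8, 18.9 and 16.0 CPM in GCE/+ replicates 1 and 2 and GCE/GCE replicates 1 and 2 (-0.39 on the log2 scale, SE 0.12, Benjamini-Hochberg adjusted p = 0.246, edgeR quasi-likelihood fit). *Flt1*, which encodes VEGF receptor 1 of endothelial cells, had 5.44, 5.11, 3.96 and 2.94 CPM in the same order (-0.61, SE 0.19, adjusted p = 0.246, same test). Without GCE/GCE replicate 1 there were 4 calls in this family, *Flt1*, *Flt4*, *Nrp1* and *Vegfc*, all lower, while calls over all genes went from 285 to 748, of which 457 were lower. *Nrp2*, a coreceptor with the highest mean CPM of the 9, had overlapping samples (0.05, SE 0.10). *Flt1*, *Kdr* and *Flt4* are receptors of endothelial cells, and summed over 10 endothelial markers the level was 111.7 and 87.7 CPM in GCE/+ and 86.7 and 73.0 CPM in GCE/GCE replicates 1 and 2. The part of these cells in the values of these receptors was not tested.

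Glucose enters the pathway through the transporter GLUT1, encoded by *Slc2a1*. Its level was 119.3 and 111.1 CPM in GCE/+ replicates 1 and 2 and 126.8 and 112.1 CPM in GCE/GCE replicates 1 and 2. The samples overlapped, and the log2 fold change of 0.05 (SE 0.09, 95% interval -0.16 to 0.26) became -0.05 without GCE/GCE replicate 1.

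Further along glycolysis, *Aldoa*, *Pgk1* and *Eno1* encode enzymes of fructose 1,6-bisphosphate cleavage, of the first ATP-yielding step and of phosphoenolpyruvate formation, and *Ldha* encodes the lactate dehydrogenase subunit that favours lactate. *Aldoa* had 345.0 and 293.9 CPM in GCE/+ replicates 1 and 2 and 380.2 and 341.7 CPM in GCE/GCE replicates 1 and 2. In both genotypes replicate 2 was the lower, and the genotypes overlapped, with a log2 fold change of 0.18 (SE 0.11, 95% interval -0.07 to 0.42). *Ldha* had 580.0 and 532.1 CPM in GCE/+ and 644.4 and 628.2 CPM in GCE/GCE replicates 1 and 2. Its samples were separated by genotype, but the log2 fold change of 0.19 (SE 0.10) did not pass the test (Benjamini-Hochberg adjusted p = 0.565, edgeR quasi-likelihood fit).

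*Pgk1* had 336.4 and 318.3 CPM in GCE/+ replicates 1 and 2 and 387.1 and 398.7 CPM in GCE/GCE replicates 1 and 2. The separation by 20.0% was 3.25 times the larger log2 difference between embryos of 1 genotype, and the log2 fold change of 0.26 (SE 0.09, 95% interval 0.07 to 0.46) had an unadjusted p of 0.0146 and a Benjamini-Hochberg adjusted p of 0.267 in the edgeR quasi-likelihood fit. It was called, with a log2 fold change of 0.30, once offsets removed each sample's trend on transcript length (adjusted p = 0.0826, same test, against 0.0826 to 0.944 over all alternatives). *Pgk1* is X-linked, and *Xist*, the RNA of the inactive X chromosome, was at 1142 CPM in GCE/GCE replicate 1, whereas no other sample exceeded 2.63 CPM. By *Xist*, only GCE/GCE replicate 1 appeared female, so sex was not balanced between the genotypes. Without GCE/GCE replicate 1 the log2 fold change of *Pgk1* was 0.28. The part of sex in the *Pgk1* values was not tested. In its longest transcript, 67.9% of 50-base stretches also occurred in the copy *Pgk1-rs7*.

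*Eno1*, which encodes α-enolase, had only 14.4 and 17.8 CPM in GCE/+ replicates 1 and 2 and 17.9 and 22.5 CPM in GCE/GCE replicates 1 and 2. The highest GCE/+ and the lowest GCE/GCE value differed by less than 0.1 CPM, and the log2 fold change was 0.33 (SE 0.15, 95% interval -0.02 to 0.68). Most counts of this pair of near-identical genes were assigned to the copy. *Gm5506* (*Eno1b*) shares 70.5% of the 50-base stretches of *Eno1* and had 168.6 and 160.5 CPM in GCE/+ and 205.7 and 188.4 CPM in GCE/GCE replicates 1 and 2. Of the counts given to the pair, *Eno1* held 7.85% to 10.67% depending on the sample. Summing the pair gave 183.0 and 178.3 CPM in GCE/+ and 223.6 and 210.9 CPM in GCE/GCE replicates 1 and 2, and their log2 fold change was 0.27 (SE 0.08, Benjamini-Hochberg adjusted p = 0.223, edgeR quasi-likelihood fit). The level of *Eno1* taken alone was therefore uncertain, whereas the sum lay near *Pgk1* in its change.

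Of the 14 other glycolytic enzymes 1 rose, *Pfkl*, and none fell, against 0.895% and 0.927% of all genes. Above 0 were 13 of 14 log2 fold changes, as were 50.9% of those of all genes, and the median was 0.10. *Pfkl*, the liver-type subunit of phosphofructokinase, which catalyses the committed step, had 99.3 and 101.0 CPM in GCE/+ and 130.0 and 130.6 CPM in GCE/GCE replicates 1 and 2. The separation was clear beside the spread between embryos, at 0.38 on the log2 scale (SE 0.08, Benjamini-Hochberg adjusted p = 0.0742, edgeR quasi-likelihood fit). The call was lost without GCE/+ replicate 1 (adjusted p = 0.132), GCE/GCE replicate 1 (0.153) or GCE/GCE replicate 2 (0.219), and with the replicate block (0.121, same test throughout). The muscle and platelet-type subunits were not called, with 0.08 (SE 0.08) for *Pfkm* and -0.06 (SE 0.18) for *Pfkp*. *Gpi1*, which converts glucose 6-phosphate to fructose 6-phosphate, followed with 0.25 (SE 0.09, adjusted p = 0.339, same test). *Pkm*, pyruvate kinase, had the highest mean CPM of the 14, with 855 and 861 CPM in GCE/+ and 942 and 900 CPM in GCE/GCE replicates 1 and 2, and a log2 fold change of 0.10 (SE 0.10). In 8 of the 14 both GCE/GCE samples exceeded both GCE/+ samples, which held for 19.2% of all genes. An unadjusted p under 0.05 in the edgeR test was reached by 3 of the 14 and by 10.5% of all genes.

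**Figure D3:**
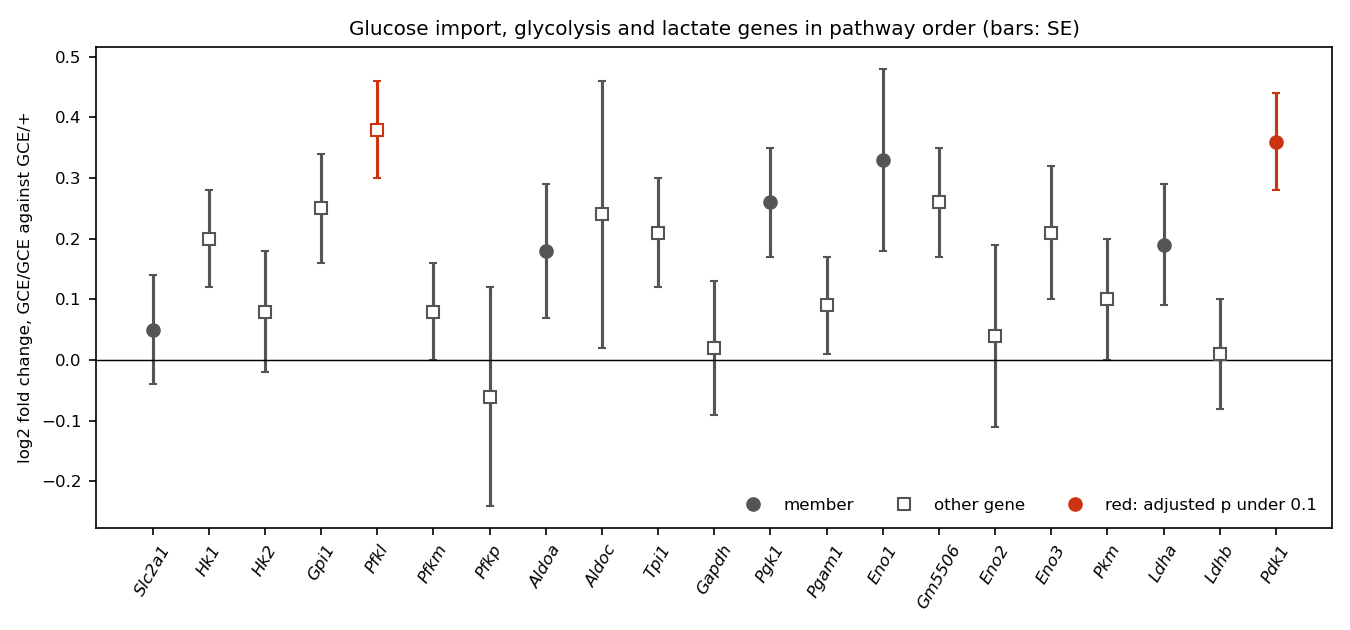
Log2 fold change of GCE/GCE over GCE/+ for the genes of glucose import, glycolysis and lactate formation in pathway order, followed by *Pdk1*, with filled circles for the 10 hypoxia and glycolysis genes, open squares for other genes, bars of 1 SE and red for an adjusted p under 0.1. *Pfkl* (0.38) and *Pdk1* (0.36) are the genes in red, and *Pfkp* (-0.06) is the plotted gene below 0.

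Beyond pyruvate the genotypes were close. None of 26 genes of pyruvate entry and the citric acid cycle was called by edgeR or DESeq2 and 0 had an unadjusted p under 0.05, their log2 fold changes ran from -0.18 to 0.12, and their median was -0.01. The lowest p in this list was that of *Sdhd*, a subunit of succinate dehydrogenase (log2 fold change -0.12, SE 0.08), followed by *Pdk3*.

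Among 24 further HIF target genes none was called higher and 1 was called lower, *Hmox1*, against 0.895% and 0.927% of all genes. The median log2 fold change was 0.11, with 17 values above and 7 below 0, while 50.9% of all genes were above 0. In the edgeR test 6 of the 24 had an unadjusted p under 0.05, as did 10.5% of all genes. These were *Car9* (0.80, SE 0.22), *Stc2* (0.65, SE 0.22) and *Slc16a3* (0.42, SE 0.12), higher, and *Hmox1*, *Angptl4* and *Plin2*, lower. *Car9* and *Stc2* had low means, of 1.56 and 2.28 CPM. *Hmox1* encodes haem oxygenase 1, which degrades haem and is induced by oxidative stress as well as by HIF. It had 95.6 and 76.8 CPM in GCE/+ and 53.1 and 45.3 CPM in GCE/GCE replicates 1 and 2. The log2 fold change was -0.81 (SE 0.12, Benjamini-Hochberg adjusted p = 0.0328, edgeR quasi-likelihood fit). With 1 sample left out, where the spread came from the complete genotype alone, the log2 fold change ran from -0.96 to -0.65. *Hmox1* is also expressed by macrophages. All 15 macrophage markers had negative log2 fold changes, as did 7676 of the 15645 genes tested. Of the 15, 12 were called lower, against 0.927% of all genes, and the median of the 15 was -1.0. Their summed level was 376.4 and 376.4 CPM in GCE/+ against 231.5 and 165.3 CPM in GCE/GCE replicates 1 and 2. The part of these cells in the *Hmox1* value was not tested. *Angptl4*, a secreted inhibitor of lipoprotein lipase, had the next lowest p, at -0.40 on the log2 scale (SE 0.10, adjusted p = 0.130, same test). *P4ha1*, a collagen prolyl hydroxylase subunit with the highest mean CPM of the 24, overlapped between genotypes (0.16, SE 0.10). Of the 24 genes, 12 had both GCE/GCE samples above both GCE/+ samples and 4 had both below, which held for 19.2% and 19.1% of all genes. DESeq2 added *Slc16a3*, the lactate exporter MCT4, as higher and *Angptl4* as lower, for 3 calls in all.

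**Figure D4:**
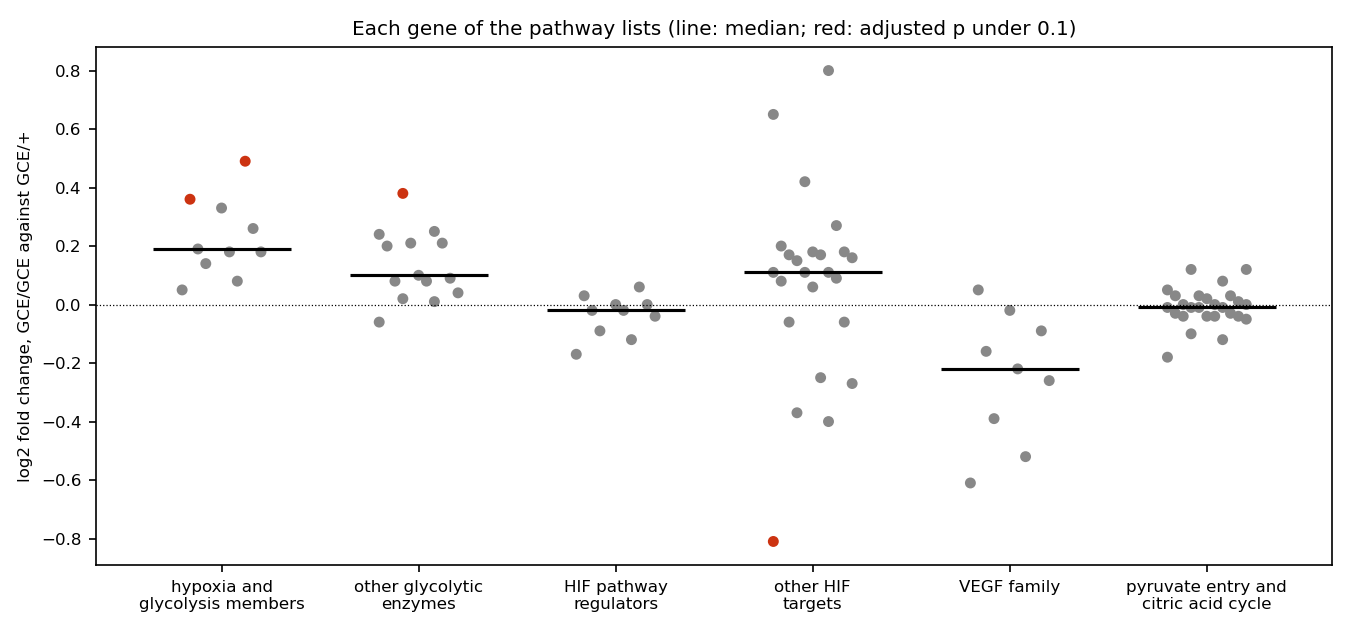
Log2 fold change of GCE/GCE over GCE/+ for each gene of 6 gene lists, with a line at the median of the list and red for an adjusted p under 0.1. The medians are 0.19 for the 10 hypoxia and glycolysis genes, 0.10 for the other glycolytic enzymes, -0.02 for HIF pathway regulators, 0.11 for other HIF targets, -0.22 for the VEGF family and -0.01 for pyruvate entry and the citric acid cycle.

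The profile of the 10 genes over the samples was summarised as the median of their mean-centred log2 CPM, which was -0.06 and -0.16 in GCE/+ and 0.11 and 0.10 in GCE/GCE replicates 1 and 2. Of 9755 other genes whose mean reached 10 CPM, the 5 nearest to it by Euclidean distance over the 4 samples were *Cep250*, *Intu*, *Tmem176a*, *Nkd2* and *A130022J15Rik*, at distances of 0.0246 to 0.0388. None of the 5 was called, and *Cep250* had 88.1 and 83.8 CPM in GCE/+ and 100.4 and 98.8 CPM in GCE/GCE replicates 1 and 2.

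Among markers of other cell types, those of cartilage and of macrophages had the most calls between genotypes in the edgeR test. All 16 cartilage markers were higher in both GCE/GCE samples, which held for 19.2% of all genes. Of the 16, 7 were called higher, against 0.895% of all genes, and the median log2 fold change of the 16 was 0.96. Their summed level was 1027 and 1529 CPM in GCE/+ and 2173 and 2350 CPM in GCE/GCE replicates 1 and 2. DESeq2 called 7 too, but not the same 7, as *Comp* was called by DESeq2 alone. *Col2a1*, the type II collagen of cartilage, had the highest mean CPM and was called by neither. On the log2 scale, the median difference of replicate 2 from replicate 1 was 0.80 for cartilage markers in GCE/+ and 0.15 in GCE/GCE. The median for the hypoxia and glycolysis genes was -0.09 in GCE/+ and -0.04 in GCE/GCE. The difference was -0.14 and 0.01 for *Bnip3*, and 0.03 and -0.03 for *Pdk1*, in the same order. Each value rests on 1 pair of embryos. Muscle markers, with 1 of 14 called (*Myh8*, higher), 2 by DESeq2, and a median of 0.24, summed to 208.0 and 234.3 CPM in GCE/+ and 274.5 and 242.9 CPM in GCE/GCE replicates 1 and 2, with the highest mean CPM in *Actc1*. Of the 10 endothelial markers none was called by edgeR and 1 by DESeq2, with a median of -0.44. An unadjusted p under 0.05 in the edgeR test was reached by 6 of the 10 and by 10.5% of all genes. *Tek*, with the highest mean CPM, was the 1 endothelial marker above 0 (0.15, SE 0.12), and 9 were below. Of the macrophage markers, *Mrc1* with the highest mean CPM, DESeq2 called 14 lower. Erythroid markers, 7 of 10 tested, none called by edgeR or DESeq2 and 0 with an unadjusted p under 0.05, had the highest mean CPM in *Hbb-y* and differed most between the GCE/+ embryos, at 513.1 and 175.5 CPM in GCE/+ and 343.6 and 314.0 CPM in GCE/GCE replicates 1 and 2, with *Hba-a1* at 0 in all samples. Connective tissue markers, with the highest mean CPM in *Col3a1*, summed to 21250 and 19360 CPM in GCE/+ and 18440 and 16190 CPM in GCE/GCE replicates 1 and 2, with a median of -0.25, *Osr1* as the 1 gene of 10 called, and 5 called lower by DESeq2 (*Osr1*, *Col3a1*, *Dcn*, *Lum* and *Tcf7l2*). Proliferation genes (median -0.01) and the immediate early genes that tissue dissociation induces (median -0.05) had no calls in edgeR or DESeq2 and 0 genes with an unadjusted p under 0.05, and the latter summed to 9330 and 7427 CPM in GCE/+ and 9218 and 7206 CPM in GCE/GCE replicates 1 and 2. The part of any of these cell types in the values of the 10 genes was not tested.

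**Figure D5:**
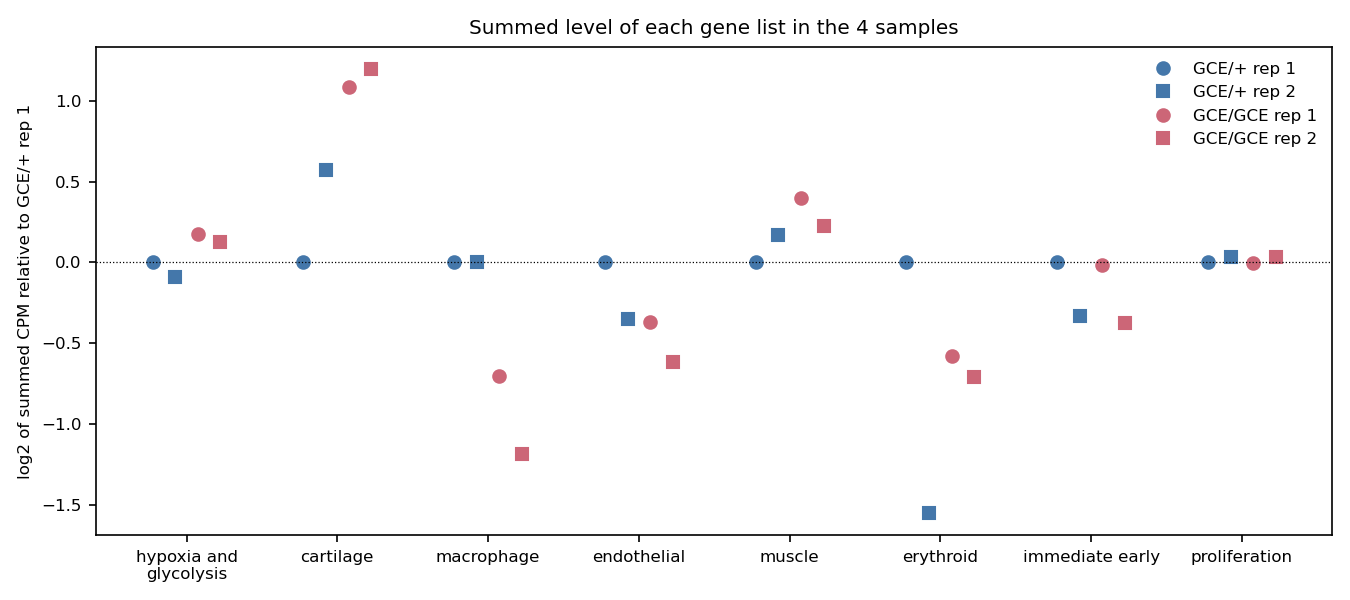
Summed CPM of the 10 hypoxia and glycolysis genes and of 7 marker lists in each sample, as the log2 ratio to GCE/+ replicate 1. The hypoxia and glycolysis sum (1909 and 1792 CPM in GCE/+, 2154 and 2084 CPM in GCE/GCE replicates 1 and 2) varies far less between samples than the cartilage, macrophage and erythroid sums.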

How the data were processed

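Per the labels and the methods of the study, paired-end reads of 50 bp were aligned by the authors with TopHat2 to mm9, guided by UCSC gene models, and HTSeq assigned fragments to genes in its intersection-strict mode. Tool versions and the strand setting are not given in the sources used here. The deposited values are raw counts per gene symbol, without normalization. Library totals ran from 52121596 to 61402140 counts, and 3 counts correspond to 0.0489 to 0.0576 CPM, which covers counting error only.

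Samples were grouped by the genotype in their labels. Genes were filtered with filterByExpr, scaled by TMM and tested with edgeR 4.0.16 in R 4.3.3 (quasi-likelihood test, two-sided, Benjamini-Hochberg adjustment, threshold 0.1). The SE was derived from the F statistic. Alternatives were DESeq2 1.42.0, RLE and upper quartile factors, library totals, no filter, at least 10 counts in every sample, a robust fit, the replicate number as a block, transcript length offsets (lowess span 0.3), an adjusted p under 0.05, and leaving out each sample. The legacy fit and the sum of *Eno1* and *Gm5506* were added after seeing the data. Scripts were tested on simulated data.

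Lengths and shared 50-base stretches came from GENCODE vM21 (GRCm38), which gave lengths for 98.0% of symbols, and promoters from RefSeq GRCm38.p6. Coordinates were not converted from mm9. Copies and relatives of the 10 genes were looked up too: of 8, 3 were tested and none was called, and *Pgk2* and *Aldoart2* were at 0 in all samples. Genes named are the 10 genes, *Osr1*, called genes of the pathway lists, the 2 lowest p-values and the highest mean CPM of each list, the marker of each cell type with the highest mean CPM and any at 0, and the 5 nearest profiles. Of the genes this rule names, 1 is not reported here. *Xist*, *Gm5506* and relatives of *Pdk1* and *Pfkl*, and genes called by DESeq2 or with a sample left out, were named after their values were seen. Other HIF targets with an unadjusted p under 0.05 were likewise named after their values were seen. Genes and lists were chosen with earlier results of these data known. Imaging, RT-qPCR and culture experiments were not analysed here.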

Additional observations from a re-analysis of the deposited data

How the results depend on the processing

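Of the 10 genes, 2 were called, with 1 call (*Bnip3*) under upper quartile factors, library totals or the replicate block, 0 without the filter on low counts or at an adjusted p under 0.05, 3 with length offsets, and 1 to 2 when 1 sample was left out. *Bnip3* ranged from 0.42 to 0.55 and *Pdk1* from 0.32 to 0.38 on the log2 scale over 17 alternatives, with *Bnip3* losing its call in 2 of them and *Pdk1* in 9. Leaving out 1 sample moved *Vegfa* between -0.03 and 0.18, *Slc2a1* between -0.05 and 0.14 and *Ankrd37* between -0.12 and 0.47. Without GCE/GCE replicate 1 the log2 fold changes of *Vegfa* (-0.03) and *Slc2a1* (-0.05) reversed, and without GCE/+ replicate 2 that of *Ankrd37* (-0.12) did. The median over the 10 genes stayed between 0.17 and 0.27. With all 4 samples, 5 to 7 of the 10 genes were separated by genotype. With 1 sample left out, 2 values are compared with 1 and separate more easily, so those counts are not given.

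Over all genes, 285 calls became 508 with DESeq2 (260 higher, 248 lower), 127 without the filter, 130 at an adjusted p under 0.05, and 199 to 961 when 1 sample was left out. Higher and lower calls split 140 and 145 with all samples, 646 and 315 without GCE/+ replicate 2 (961 in all) and 291 and 457 without GCE/GCE replicate 1 (748 in all), and the cause was not tested. The call of *Pfkl*, the single one among other glycolytic enzymes, was lost without the filter, with the replicate block and at an adjusted p under 0.05 (0 calls), and calls ranged from 0 to 1 with 1 sample left out. Other HIF targets had 1 call, 3 with DESeq2 and 2 to 3 with 1 sample left out, and the VEGF family 0 to 4 with 1 sample left out.

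Deviations of same-numbered samples were not correlated across all genes (correlation -0.013 over 11180 genes), which neither shows nor excludes a pairing. Some lists did shift alike: the median immediate early gene differed by -0.36 between replicate 2 and replicate 1 in both genotypes. Others did not, such as muscle markers, at 0.16 in GCE/+ and -0.20 in GCE/GCE. The replicate block gave 290 calls over all genes, and beside those of *Pdk1* and *Pfkl* it changed no call among the 10 genes and the pathway lists. Log2 fold changes rose with transcript length (Spearman's rho 0.256 across genes, which are not independent replicates). Block and offsets together called *Pgk1* and *Bnip3*. Legacy fit and summed enolase counts, chosen after seeing the data, each left 2 calls. With 2 embryos a group, the 95% interval included 0 for 7 of the 10 genes.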
